A study of Mus musculus with 6 samples.

Results

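Cytosolic ribosomal proteins were examined in flow-sorted microglia, the macrophages that reside in the brain and optic nerve. The cells came from optic nerves of C57BL/6 mice aged 3 months. A gene was taken as a member by its symbol alone: Rpl or Rps with a number and at most one of the suffix letters a, x, l or y and a further digit, Rplp0 to Rplp2, or Rpsa. The symbol rule gave 83 of the 37447 genes in the table, 50 of the large and 33 of the small ribosomal subunit, and left out 172 rows whose symbols mark pseudogenes. Of the 83 genes, 7 encode paralogs of a core protein, some of which are known for expression in particular tissues (Rpl3l, Rpl7l1, Rpl10l, Rpl22l1, Rpl39l, Rps27l and Rps4y2). The other 76, 45 large and 31 small, are called core genes here. Rpl13 was not analysed here.

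The study compared 2 genotypes in 6 libraries. Mice of the FM group were Nf1 flox/mut: a floxed allele was paired with a mutant one at Nf1, the neurofibromatosis type 1 gene (2 libraries). Mice of the FMC group carried the same alleles and GFAP-Cre, so that Cre is driven by a promoter of astroglial cells and not of microglia (4 libraries). The mutant allele is therefore shared by both groups, and no group without it was analysed. Since Cre is not driven in microglia, the Nf1 level of the sorted cells is no check of the genotype labels. FM 1, FMC 2 and FMC 3 are labelled male and FM 2, FMC 1 and FMC 4 female. The labels call the libraries biological replicates without saying whether each came from 1 mouse or from a pool, so the spread between libraries may be in part technical. Values are FPKM, fragments scaled to transcript length and to the mapped fragments of the library. Levels of different genes are compared on this scale only roughly, since differences between libraries still varied with transcript length, as given below. Values are given throughout in the order FM 1 and FM 2, then FMC 1 to FMC 4.

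A ribosome joins a small subunit, which holds the mRNA and reads its codons, and a large subunit, which forms the peptide bond and releases the chain through an exit tunnel. Each subunit needs its proteins in fixed proportion, and in most cells their mRNAs are among the most abundant. These mRNAs share a short pyrimidine tract at the 5′ end, the TOP motif, through which mTOR signalling controls their translation. Neurofibromin, the Nf1 product, is a negative regulator of Ras, which acts upstream of mTOR.

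The pyrimidine run at the start of the gene was looked for in RefSeq promoter sequences (GRCm38.p6), in which 62 of the 83 members were matched, 1 of them through a synonym. These 30-base windows, from 10 bases before the annotated start to 20 bases from it, are shown for 9 members named in the results below. The first 7 were chosen because they hold a run of at least 8 bases, and Rpl10 and Rpl41 because their longest run is only 3. The capitals mark the longest run of C and T that begins with C.

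Rpl13a: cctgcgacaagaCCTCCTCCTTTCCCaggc
Rplp2: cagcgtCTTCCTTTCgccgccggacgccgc
Rps6: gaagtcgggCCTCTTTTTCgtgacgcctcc
Rps18: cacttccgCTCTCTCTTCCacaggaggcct
Rps26: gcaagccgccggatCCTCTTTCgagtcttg
Rps27: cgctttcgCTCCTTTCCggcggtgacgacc
Rpl22l1: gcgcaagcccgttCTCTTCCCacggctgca
Rpl10: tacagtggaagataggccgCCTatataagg
Rpl41: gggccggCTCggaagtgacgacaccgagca

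The windows lie at chr7:45128726-45128755 on the minus strand, chr7:141447641-141447670 on the plus strand and chr4:86857348-86857377 on the minus strand. Those of Rps18, Rps26, Rps27 and Rpl22l1 lie at chr17:33955646-33955675 on the minus strand, chr10:128626487-128626516 on the minus strand, chr3:90213629-90213658 on the minus strand and chr3:28805498-28805527 on the plus strand. Rpl10 and Rpl41 lie at chrX:74270806-74270835 on the plus strand and chr10:128549149-128549178 on the minus strand. On the coding strand, a run of at least 8 pyrimidines starting with C between 20 bases before and 40 bases after a start was found in 39 of 62 matched members (62.9%), against 19.6% of all 27025 genes with a promoter sequence. The paralog Rpl22l1 had such a run, while at the 2 annotated starts of its core counterpart Rpl22 the longest runs were 4 and 5 bases. The letters CCGGAAG, the core of many ETS factor sites, occurred on either strand of the 300-base promoter in 26 of 62 members (41.9%) and in 9.93% of all genes. These are descriptions of the sequence, and the libraries hold no measurement of binding or of translation. The windows follow annotated starts, and where transcription begins was not measured. A short run, as in Rpl10 and Rpl41, therefore does not show that the mRNA lacks a TOP motif.

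The level of the ribosomal protein genes differed from library to library, in both genotypes. Their share of the summed FPKM was 7.24, 15.5, 11.1, 7.86, 5.89 and 17.2% in FM 1, FM 2 and FMC 1 to FMC 4. FM 2 and FMC 4 had the highest shares, FMC 1 lay between, and FM 1, FMC 2 and FMC 3 were low. The share averaged 11.4 ± 5.87% in FM (SD, n = 2) and 10.5 ± 4.96% in FMC (SD, n = 4), and each group held both high and low libraries. The large subunit made up 3.99, 8.15, 5.76, 4.21, 3.19 and 8.78% and the small subunit 3.25, 7.40, 5.36, 3.65, 2.69 and 8.44% of the libraries in the same order. In bulk RNA, fewer cells with a transcript and less of it per cell cannot be told apart.

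**Figure D1:**
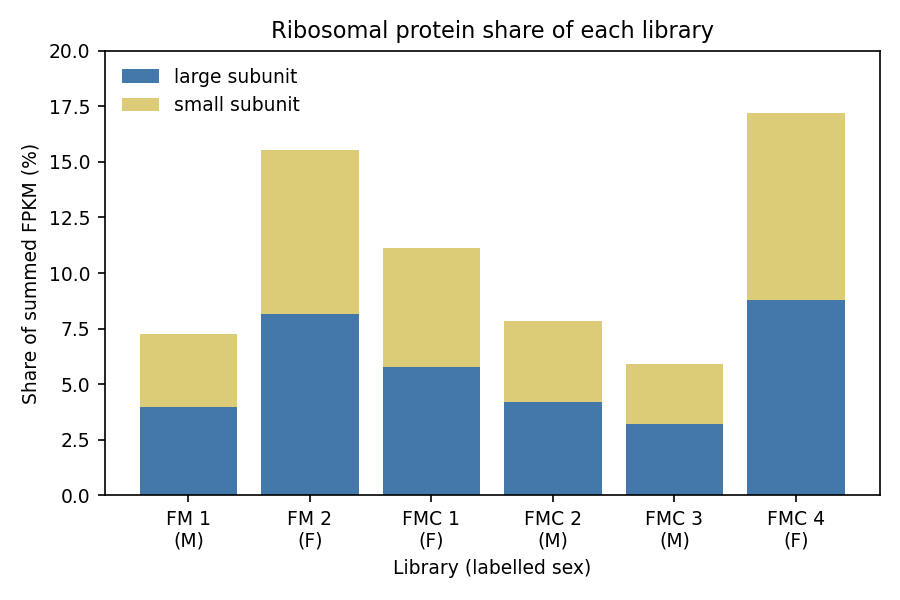
Share of summed FPKM taken by ribosomal protein genes (y axis, percent) in each library (x axis, labelled sex in brackets), stacked by large and small subunit, 1 library per bar. FM 2 and FMC 4 reach 15.5% and 17.2%, and FMC 3 is lowest at 5.89%.

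The median core gene of the large subunit stood at 281, 659.6, 548, 284, 269.9 and 759.5 FPKM in FM 1, FM 2 and FMC 1 to FMC 4. For the small subunit the medians were 266, 858, 739, 320.1, 296 and 1036 FPKM. The order of the libraries was nearly the same gene by gene: FMC 4 was the highest library for 56 of the 76 core genes, FM 2 for 14 and FMC 1 for 6. FMC 3 was the lowest for 33, FM 1 for 28 and FMC 2 for 15. No core gene had its highest value in FM 1, FMC 2 or FMC 3.

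**Figure D2:**
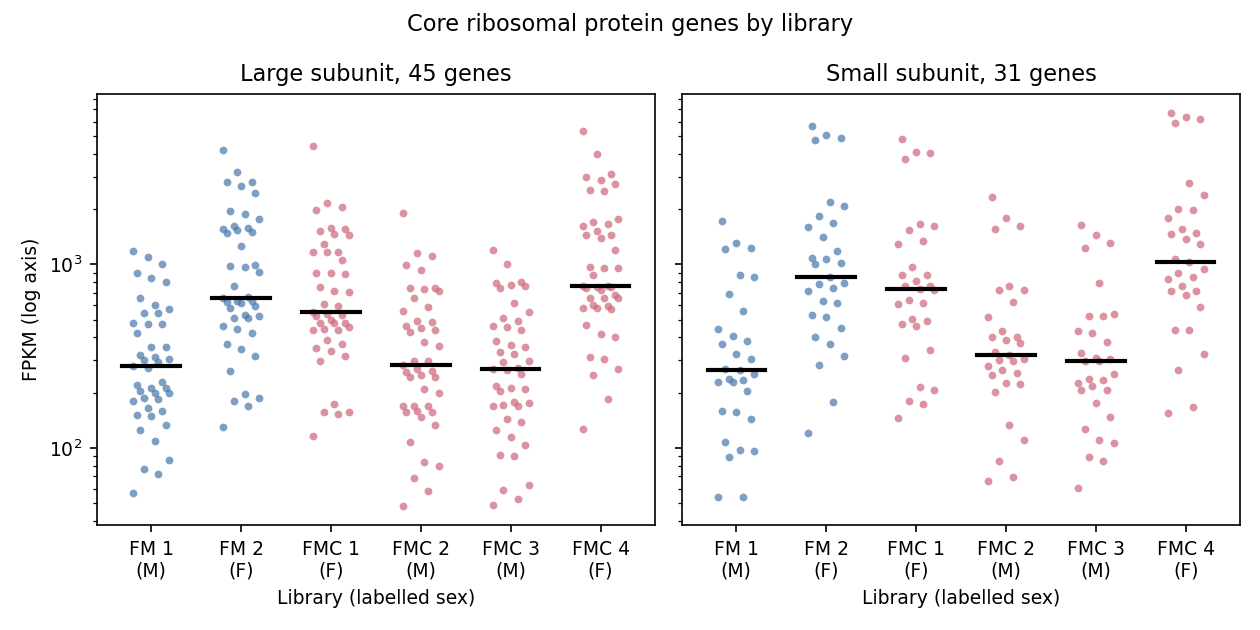
FPKM (y axis, log scale) of the 45 large and 31 small subunit core genes (1 point each) in each library (x axis, labelled sex in brackets), FM in blue and FMC in red, with the median as a bar. FM 1, FMC 2 and FMC 3 have medians between 266 and 320 FPKM, and FM 2, FMC 1 and FMC 4 between 548 and 1036.

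The core genes largely kept their order within each library while their level moved. Across the 76 core genes, the log2 values of 2 libraries had a Pearson r of 0.938 to 0.982, against 0.667 to 0.758 across all 18208 genes tested. Genes are not independent replicates, and the core genes share libraries, so these values are descriptions. The core genes all had a mean above 100 FPKM, whereas the genes tested include many with low values. Other genes of like abundance were not compared, so the higher r cannot be read as particular to the core genes. The SD of a core gene over the 6 libraries had a median of 0.88 on the log2 scale, and 0.24 once the mean of the core genes in each library was removed. Rps16 kept closest to the common level, with an SD of 0.08 after that step.

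Mean levels of the core genes spanned a 34.5-fold range, from 100.2 to 3454 FPKM. Rps29, a small zinc-binding protein, was the most abundant, with an FPKM of 1209 and 5689 in the FM libraries and 4806, 1780.4, 1316 and 5925 in the FMC libraries. Rps23, at the decoding site, had an FPKM of 1222 and 4898 in the FM libraries and 4063, 2335, 1440.3 and 6678 in the FMC libraries. In the large subunit Rpl32 led with an FPKM of 1097 and 4204 in the FM libraries and 4438, 1914, 1002 and 5311 in the FMC libraries, followed by Rpl23a, part of the docking site at the tunnel exit, with an FPKM of 1188 and 3171 in the FM libraries and 2058, 739, 799 and 4008 in the FMC libraries. All 4 genes were lower in FM 1, FMC 2 and FMC 3 than in the other libraries. Processed pseudogenes of these genes are numerous, and how fragments that match several copies were assigned is not stated in the sources at hand. The 172 pseudogene rows summed to between 1130 and 4067 FPKM per library, highest in FMC 4 and lowest in FM 1.

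Properties of whole libraries moved with the ribosomal protein level. The summed FPKM of all genes lay between 420285 and 674799, and the 3 libraries with more ribosomal protein mRNA also had the higher sums (608633 to 674799, against 420285 to 494766). Totals of sequenced reads were not analysed here, so the depth is unknown. Housekeeping mRNAs moved the same way, with Gapdh at 747, 1931, 1469, 905, 748 and 2395 FPKM and Actb at 780.2, 2008, 1175, 938, 1157 and 1707 FPKM in FM 1, FM 2 and FMC 1 to FMC 4. The nuclear RNAs Malat1 (596, 162, 446, 364, 603 and 172 FPKM) and 7SK (741, 45.3, 963, 352, 304 and 36.3 FPKM) were lowest in FM 2 and FMC 4. These 4 genes lie outside the naming rule, and the last pair was chosen after its values were seen. Microglia markers, 12 of 12 measured, summed to 3281, 6429, 4293, 3227, 3899.9 and 5537 FPKM, highest in FM 2 and FMC 4. T cell markers summed to 62.9, 69.5, 358, 93.4, 96.5 and 49.4 FPKM and B cell markers to 47.8, 121, 155, 34.9, 49.3 and 58.7 FPKM, both highest in FMC 1. Erythroid markers summed to 158, 128, 32.7, 23.6, 31.7 and 25.2 FPKM, with both FM libraries above all FMC libraries. The part of these differences in the ribosomal protein values was not tested. FMC 1, labelled female, goes partly against its label: Y-linked Uty stood at 16.3 FPKM and Ddx3y at 6.18 FPKM beside 16.3 FPKM of Xist, while Kdm5d was at 0.926 FPKM. Y-linked Eif2s3y was at 3.37 FPKM in FMC 1, against 57.8 to 114 FPKM in the libraries labelled male. Xist was low in the other libraries labelled female, at 0.819 FPKM in FM 2 and 1.22 FPKM in FMC 4. The comparison by labelled sex is given with and without FMC 1.

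Whether microglia from mice with astroglial Nf1 loss differ in ribosomal protein mRNA was addressed by comparing FMC with FM. None of the 81 members that passed the filter on low values (at least 1 FPKM in at least 2 libraries) was called in either direction by limma after Benjamini-Hochberg adjustment, while 5 of all 18208 genes were (0.0275%). The smallest adjusted p of a member was 0.994 in limma, and 0 members reached an unadjusted p under 0.05, where 973 of all genes did. The median difference on the log2(FPKM + 1) scale was -0.01 for 48 large subunit genes and 0.07 for 33 small subunit genes, beside -0.12 for all genes tested. In 0 of 81 members did all FMC libraries lie above both FM libraries (4.34% of all genes), and in 0 of 81 did they lie below both (8.22%). The standard error of a member's difference was between 0.54 and 1.09 in this fit, so that differences of the size of these medians were not detectable with these libraries. With labelled sex as a covariate the standard error was smaller for most members named below, such as Rpl7 at 0.32, and larger for Rpl39l, at 0.72. The smallest adjusted p of a member in that limma fit was 0.958.

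Which FM library was used decided the direction. Without FM 1 the medians were -0.78 (large) and -0.83 (small), and without FM 2 they were 0.66 and 0.84. Within the labelled sexes, FMC 4 exceeded FM 2 by a median of 0.20 in the large and 0.31 in the small subunit, and FMC 1 lay below FM 2, at -0.33 and -0.30. Among the libraries labelled male, FMC 2 lay above FM 1 (0.16 and 0.29) and FMC 3 below it (-0.17 and -0.02). In each sex the FM library thus lay between the FMC libraries for both subunits. Both pairs with title dates 1 day apart went opposite ways: FMC 2 against FM 1 is the pair just given, and FMC 3 against FM 2, which also differ in labelled sex, gave -1.64 and -1.73. With blocks by title dates the medians were -0.72 and -0.70. What those dates stand for is not stated.

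**Figure D3:**
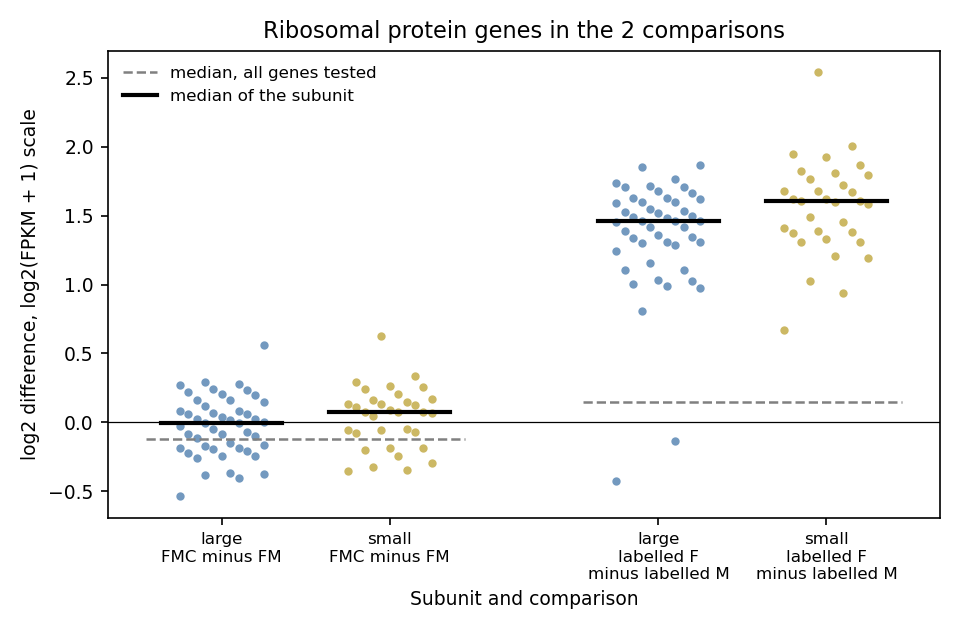
Difference of each ribosomal protein gene (y axis, log2(FPKM + 1) scale) for FMC minus FM and for labelled female minus labelled male (x axis, split by subunit, 48 large and 33 small genes). Bars are subunit medians (-0.01 and 0.07 for genotype, 1.46 and 1.61 for labelled sex) and dashed lines the medians of all genes tested (-0.12 and 0.15).

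Among proteins of the stalk, which recruits the translation GTPases, Rplp0 had an FPKM of 56.6 and 130.3 in the FM libraries and 157, 84.0, 62.7 and 127 in the FMC libraries. Rplp1 had an FPKM of 357 and 1506 in the FM libraries and 1053, 557, 323 and 1194 in the FMC libraries, and Rplp2 an FPKM of 602 and 1623 in the FM libraries and 1562, 659.8, 550.0 and 1655 in the FMC libraries. Rplp0 lay below both of the proteins that it anchors in every library. Rpl12, at the base of the stalk, had an FPKM of 281 and 995 in the FM libraries and 898, 440.0, 459.6 and 971 in the FMC libraries. Its FMC libraries lay between the FM libraries, and the difference was 0.29 ± 0.67 (log2, SE), with a limma adjusted p of 0.999.

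Rpl5 and Rpl11 bind the 5S rRNA and, when outside the ribosome, the p53 regulator Mdm2. Rpl5 had an FPKM of 213 and 423 in the FM libraries and 349.8, 157, 253 and 572 in the FMC libraries. Rpl11 had an FPKM of 799 and 2452 in the FM libraries and 2149.5, 1160.0, 616 and 3004 in the FMC libraries. Both were highest in FMC 4, and the range over FMC covered the FM range.

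Around the peptidyl transferase centre, Rpl3 had an FPKM of 199 and 659.6 in the FM libraries and 477, 269, 269.9 and 747 in the FMC libraries. Rpl10, which is fitted late in assembly and is X-linked, had an FPKM of 844 and 2682 in the FM libraries and 1444, 1110.5, 1199.8 and 2876 in the FMC libraries. Rpl10a, on the other side of the subunit at the L1 stalk, had an FPKM of 320.3 and 592 in the FM libraries and 612, 298, 364 and 753 in the FMC libraries. In all 3 genes the libraries fell into the same high and low sets in both genotypes.

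At the tunnel exit and the outer rim, Rpl39 had an FPKM of 273 and 582 in the FM libraries and 478, 249, 203 and 763 in the FMC libraries. Rpl38, known for its role in the translation of homeobox mRNAs, had an FPKM of 221 and 463 in the FM libraries and 526, 298, 143 and 582 in the FMC libraries. Rpl22, which binds RNA and is needed for T cell development, had an FPKM of 187 and 347 in the FM libraries and 456, 169.8, 169 and 576 in the FMC libraries. Over the 10 genes of the tunnel and rim the median difference was -0.03, with 5 above and 5 below 0. Rpl13a, which can be released to silence inflammatory mRNAs in interferon-treated myeloid cells, had an FPKM of 299.8 and 985 in the FM libraries and 751, 431, 333 and 958 in the FMC libraries. Rpl41, the shortest of the ribosomal proteins, had an FPKM of 473 and 1572 in the FM libraries and 1585, 587, 299 and 1626 in the FMC libraries.

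The 3 large subunit genes lowest in FMC were Rpl39l, described with the paralogs below, Rpl7 and Rpl23a. Rpl7 had an FPKM of 425 and 966 in the FM libraries and 591, 357, 296 and 871 in the FMC libraries, a difference of -0.41 ± 0.63 (log2, SE) with a limma adjusted p of 0.999. For Rpl23a the difference was -0.39 ± 0.86, with the same adjusted p from limma. The highest in FMC, besides Rpl12 and Rpl22l1, was Rpl36a, an X-linked gene, with an FPKM of 304 and 915 in the FM libraries and 897, 377, 355 and 1393 in the FMC libraries. Its difference was 0.28 ± 0.75. In Rpl7, Rpl23a and Rpl36a the groups overlapped, and the difference was smaller than its standard error. With labelled sex as a covariate the standard errors were 0.32, 0.36 and 0.32. The differences of Rpl7 and Rpl23a then exceeded theirs, with a limma adjusted p of 0.958 for each, and that of Rpl36a did not.

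In the small subunit the largest difference was that of Rps19, the gene most often mutated in Diamond-Blackfan anaemia (chromosome 7, 25669389 to 25674825 in mm9). It had an FPKM of 143 and 614 in the FM libraries and 617, 265, 304 and 898 in the FMC libraries. The mean was 379 ± 333 FPKM in FM (SD, n = 2) and 521 ± 297 FPKM in FMC (SD, n = 4). FM 1 was the lowest library and FMC 4 the highest, with FM 2 among the FMC libraries. The difference was 0.63 ± 0.74 (log2, SE), with a limma adjusted p of 0.998. With labelled sex as a covariate its standard error was 0.35, with a limma adjusted p of 0.958.

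Of the proteins that line the mRNA entry and the decoding site, Rps2 had an FPKM of 89.0 and 400.0 in the FM libraries and 174, 84.8, 106 and 326 in the FMC libraries, a difference of -0.33 ± 0.74. Rps3, which also acts in DNA repair, had an FPKM of 54.2 and 178 in the FM libraries and 207, 69.4, 89.2 and 166 in the FMC libraries, a difference of 0.30 ± 0.65. Rps23 differed by 0.34 ± 0.90. The groups of all 3 overlapped, and each difference was below its standard error.

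On the mRNA exit platform, Rps14, which is lost in the 5q deletion of myelodysplastic syndrome, had an FPKM of 95.9 and 858 in the FM libraries and 340.1, 201, 207 and 759.5 in the FMC libraries. FM 1 and FM 2 spanned all FMC libraries. Rps26 had an FPKM of 406 and 1022 in the FM libraries and 813, 334, 421 and 1296 in the FMC libraries, and Rpsa, also known as the laminin receptor, had an FPKM of 53.8 and 121 in the FM libraries and 145, 65.9, 60.7 and 155 in the FMC libraries. The 5 platform genes had a median difference of 0.09, and 4 of 5 lay above 0.

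Rps6, the substrate of the S6 kinases downstream of mTOR, had an FPKM of 268 and 451 in the FM libraries and 506, 300.1, 238 and 712 in the FMC libraries. Rps27 had an FPKM of 1307 and 4756 in the FM libraries and 3769, 1620.0, 1236 and 6343 in the FMC libraries. Rps27a, made as a fusion with ubiquitin, had an FPKM of 325 and 999.7 in the FM libraries and 766, 305, 252 and 1070.0 in the FMC libraries. X-linked Rps4x had an FPKM of 854 and 2200.3 in the FM libraries and 1334, 726, 796 and 2006 in the FMC libraries. None of these genes separated the genotypes.

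The balance of the subunits did not separate the genotypes but differed between libraries. The mean log2(FPKM + 1) of the large subunit genes minus that of the small subunit genes was -0.18, -0.42, -0.43, -0.27, -0.27 and -0.46 in FM 1, FM 2 and FMC 1 to FMC 4. It was -0.295 ± 0.170 in FM (SD, n = 2) and -0.359 ± 0.103 in FMC (SD, n = 4), so the group difference was smaller than the spread of either group. By labelled sex it was -0.437 ± 0.024 in the female and -0.238 ± 0.055 in the male libraries (SD, n = 3 each), which did not overlap. For the core genes alone it was -0.04, -0.27, -0.23, -0.25, -0.19 and -0.29, and there the labelled sexes overlapped. The ratio of the summed FPKM of the large to the small subunit was 1.23, 1.10, 1.07, 1.15, 1.19 and 1.04. The libraries rich in ribosomal protein mRNA had the lowest ratios, between 1.04 and 1.10, and the others had ratios between 1.15 and 1.23.

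**Figure D4:**
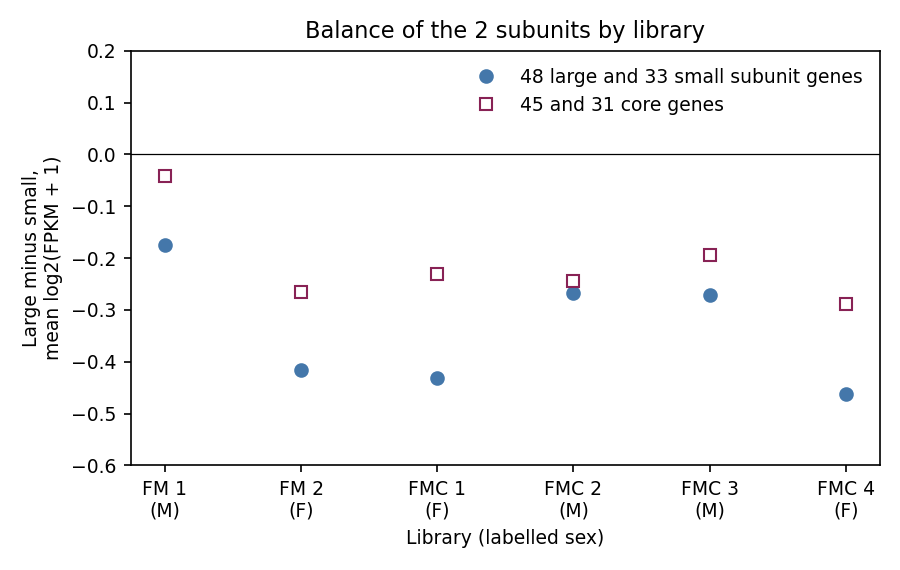
Mean log2(FPKM + 1) of the large minus the small subunit genes (y axis) in each library (x axis, labelled sex in brackets), for the 81 genes that passed the filter (filled) and for the 76 core genes (open). All values lie below 0, between -0.46 and -0.18 for the 81 genes.

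Labelled sex, which was examined after the values had been seen, separated the libraries where genotype did not. It ran with the title dates: all libraries labelled male are dated November, FMC 1 October, and FM 2 and FMC 4 December. Labelled sex and title date can therefore not be fully told apart in these libraries, and the part of either was not tested. The share of summed FPKM was 14.6 ± 3.15% in the libraries labelled female and 7.0 ± 1.01% in those labelled male (SD, n = 3 each). In 76 of 81 members all 3 libraries labelled female lay above all 3 labelled male, against 9.03% of all genes tested. In the limma fit with genotype as a further term, 0 members were called (0.0% of all genes, 0 of 18208), with a smallest member adjusted p of 0.229. At an unadjusted p under 0.05 in the same limma fit there were 76 members, against 7.44% of all genes. The members rise and fall together across the libraries. Both counts therefore largely repeat the same split of 3 against 3 libraries and are not separate results for each gene. The medians were 1.46 for the large and 1.61 for the small subunit, and 0.15 for all genes. Without FMC 1, the library whose sex-linked genes go partly against its label, the medians were 1.62 and 1.81 and the smallest member adjusted p from limma was 0.0700. The summed FPKM given above also separates the labelled sexes, while Malat1 and 7SK are low in FM 2 and FMC 4 but not in FMC 1, and their part in the difference was not tested. With the libraries scaled to equal sums the medians were 0.96 and 1.11 (-0.21 for all genes), and with quantile normalization 0.62 and 0.80 (-0.01 for all genes).

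Rps18 had the largest difference of the core genes (chromosome 17, 34088943 to 34092946 in mm9), with an FPKM of 306 and 1418 in the FM libraries and 974, 436, 379 and 2389.7 in the FMC libraries. The libraries labelled female held 1594 ± 724 FPKM and those labelled male 374 ± 64.8 FPKM (SD, n = 3 each), a difference of 2.01 ± 0.39 (log2, SE) with a limma adjusted p of 0.339. Rpl41 and Rpl32 led the large subunit, with differences of 1.87 ± 0.34 and 1.85 ± 0.33. The 4 X-linked core genes (Rpl10, Rpl36a, Rpl39 and Rps4x) had a median difference of 1.25, within the range of the 72 autosomal core genes, whose median was 1.51.

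The difference by labelled sex was also larger in other short, abundant mRNAs. Transcript lengths were taken from GENCODE M21 and joined by gene, and genes with a mean of at least 100 FPKM were grouped by length. Among 514 other abundant genes with a length, the median log2 difference was 1.22 for transcripts under 500 bases (25 genes) and 0.85 for those from 500 to under 1000 bases (140 genes). It was 0.60 from 1000 to under 2000 bases (167 genes), 0.27 from 2000 to under 4000 bases (141 genes) and 0.26 at 4000 bases and over (41 genes). Core ribosomal protein genes, with a median length of 713 bases, had medians of 1.46, 1.52 and 1.28 in the 3 shortest classes (13, 48 and 12 genes). The libraries of the labelled sexes did not overlap in 44% of the other genes under 500 bases and in 51.4% of those from 500 to under 1000 bases, with the female label higher, against 13 of 13 and 47 of 48 ribosomal protein genes. This grouping was made after the values were seen, and the ribosomal protein genes move together, so their counts are not separate results. The part of length in the difference was not tested further.

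**Figure D5:**
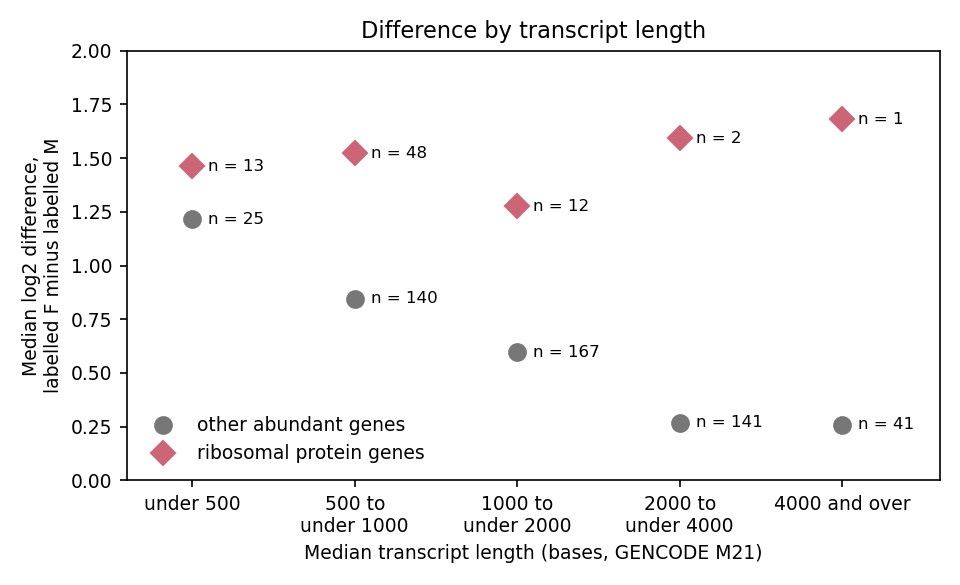
Median log2 difference, labelled female minus labelled male (y axis, log2(FPKM + 1) scale), by median transcript length (x axis, bases), for ribosomal protein genes (diamonds) and other genes with a mean of at least 100 FPKM (circles), with the number of genes. The other genes fall from 1.22 to 0.26, and the ribosomal protein genes stay between 1.28 and 1.68, with 3 genes in all in the 2 longest classes.

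The 7 paralogs had mean levels between 0.130 and 92.9 FPKM, below every core gene. Rpl22l1, which can replace Rpl22, had an FPKM of 53.0 and 81.3 in the FM libraries and 106, 95.0, 52.7 and 169.6 in the FMC libraries. Its difference of 0.56 ± 0.54 (log2, SE; limma adjusted p 0.994) was about its own standard error (chromosome 3, 28704357 to 28706274 in mm9). As a percentage of the FPKM of Rpl22 it stood at 28.3, 23.4, 23.2, 55.9, 31.2 and 29.4% in FM 1, FM 2 and FMC 1 to FMC 4, highest in FMC 2. Rps27l, known as a p53 target, had an FPKM of 86.1 and 89.2 in the FM libraries and 73.6, 35.9, 49.7 and 169 in the FMC libraries. It was 6.58, 1.88, 1.95, 2.21, 4.02 and 2.66% of Rps27, highest in FM 1, with a genotype difference of -0.35 ± 0.62 and a difference by labelled sex of 0.94 ± 0.48.

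Rpl7l1, which acts in the assembly of the large subunit, had an FPKM of 3.10 and 1.71 in the FM libraries and 0.905, 4.39, 1.69 and 3.72 in the FMC libraries, between 0.153% and 1.23% of Rpl7. Of the 81 members tested it was one of 2 with a difference by labelled sex below 0, at -0.43 ± 0.76; the other was Rpl39l, at -0.14 ± 0.68. Rpl39l, known from the testis, was listed at 0 in FMC 1, FMC 3 and FMC 4 and at 0.231, 2.16 and 2.41 FPKM in FM 1, FM 2 and FMC 2. Its genotype difference was -0.54 ± 0.68. Rps4y2, which the table places on chromosome 6 and not on the Y (148303177 to 148304120), had an FPKM of 7.53 and 28.5 in the FM libraries and 47.0, 6.55, 2.35 and 29.1 in the FMC libraries. It had the largest difference by labelled sex of all members, 2.54 ± 0.60, with FMC 1 highest. Rpl3l, known from heart and skeletal muscle, and the testis gene Rpl10l did not pass the filter, with at most 0.559 and 0.960 FPKM in a library.

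Other ribosomal proteins, whose symbols fall outside the rule, followed the same libraries. Fau, a small subunit protein made as a fusion with a ubiquitin-like protein, had an FPKM of 134 and 472 in the FM libraries and 359, 195, 105 and 548 in the FMC libraries. Gnb2l1, the scaffold protein RACK1, had an FPKM of 288 and 576 in the FM libraries and 437, 282, 248 and 668 in the FMC libraries, and Rpl36al an FPKM of 123 and 297 in the FM libraries and 168, 117, 74.0 and 303 in the FMC libraries. In these 3 genes the libraries labelled female lay above those labelled male, and none was called between genotypes.

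Of 16 translation factors and other TOP mRNAs, 0 were called between genotypes by limma (0 at an unadjusted p under 0.05), 8 lay above and 8 below 0, and the median was -0.002. Their extremes were Eif3f, a subunit of initiation factor eIF3 (0.45), and Hnrnpa1, an RNA-binding protein (-0.33). By labelled sex their median was 0.72, and 12 of 16 did not overlap with the female label higher, against 9.03% of all genes tested. In the other genes with a mean of at least 100 FPKM that share was between 12.2% and 51.4% by length class. Eif3f and Hnrnpa1 lay below that level. Of 23 ribosome assembly genes 0 were called by limma (0 at an unadjusted p under 0.05), and the genotype median was 0.03. Their median by labelled sex was -0.10, and 3 of 23 did not overlap with the female label higher (9.03% of all genes tested). The assembly factors Bop1 and Pes1, partners in one complex, were the extremes, at 1.30 and -0.85.

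Among 10 genes of the S6 kinases and of mTOR control, 0 were called by limma and 2 were below 0 at an unadjusted p under 0.05. All 10 lay below 0, with a median of -0.42 beside -0.12 for all genes. Of all 18208 genes tested, 10285 lay below 0 and 973 had an unadjusted p under 0.05 in limma, in either direction. The list summed to 339 FPKM in FM 1 and 605 FPKM in FM 2, against 288 to 363 FPKM in FMC, so that FM 1 lay within the FMC range. Rps6ka2, a ribosomal S6 kinase of the RSK family, had an FPKM of 18.3 and 10.6 in the FM libraries and 5.66, 2.15, 1.87 and 0.661 in the FMC libraries, so both FM libraries lay above all FMC libraries. Its difference was -2.24 ± 0.81 (log2, SE), with a limma adjusted p of 0.776. Rps6kb2, an S6 kinase, was closest to 0 at -0.04. Of 79 mitochondrial ribosomal protein genes tested, 0 were called by limma (4 at an unadjusted p under 0.05). The medians were -0.16 for genotype and 0.60 for labelled sex, where 14 of 79 did not overlap with the female label higher (9.03% of all genes). Their extremes were Mrpl4 at 1.88 and Mrps25 at -1.64. The 4 measured snoRNA host genes had a genotype median of -0.03, between Snhg12 at -0.23 and Gas5 at 0.17, and 0 were called by limma (0 at an unadjusted p under 0.05). Gas5, whose own mRNA also begins with a TOP tract, had an FPKM of 146 and 196 in the FM libraries and 148, 167, 194 and 275 in the FMC libraries.

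Many ribosomal protein introns encode small nucleolar RNAs, which guide the modification of rRNA. The table lists 60 rows inside the loci of 30 members, 57 of them with snoRNA symbols, and 26 were listed at 0 in all libraries. Further rows, such as Snora70 inside Rpl10, had no value and did not enter the fits. Of the 13 rows that passed the filter, 1 was called by limma. SNORA40, inside Rps16 (chromosome 7, 29136526 to 29136651 in mm9), stood at 309 FPKM in FM 1, at 153 FPKM in FM 2 and was listed at 0 in all 4 FMC libraries. It passed the filter only through the FM libraries and so had to differ, and its call supports no genotype difference. The row was tested in 15 of 18 alternatives and called in 8 of them. Its host Rps16 had an FPKM of 239 and 792 in the FM libraries and 606, 257, 236 and 855 in the FMC libraries, with groups that overlapped. The row is 126 bases long, shorter than the fragments selected for sequencing per the labels' protocols, and reads of a host intron and of the row inside it cannot be told apart.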

How the data were processed

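The authors deposited one table of FPKM values per gene for 6 libraries. Per the submitters' processing notes, CASAVA 1.8.2, TopHat2 2.0.4, Bowtie2 2.0.0, Cufflinks 2.0.2 and mm9 were used, without settings. Per the labels' protocols, total RNA was amplified with the Ovation method before paired-end sequencing. No counts were used here, so the depth is unknown. Of 37447 genes, 426 lacked a value in some library and were left out of the fits.

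Values were fitted as log2(FPKM + 1) with limma 3.58.1 (R 4.3.3, intensity trend, two-sided, Benjamini-Hochberg adjustment over all 18208 genes, threshold 0.05). A fold on this scale understates the change of low genes. The fit was run on simulated data in which each gene varied independently. The members move together in these libraries, so that run is no check of the fit for them as a set. Members and lists were chosen with earlier results of these data known. Named genes are members and pathway genes from set lists, the 3 highest and 3 lowest differences per subunit, the 2 most and 2 least abundant members per subunit, and the extremes of each pathway list. Some genes that fall under this rule are not reported here. The labelled sex comparison, the length classes and the promoter search were added after values were seen. Alternatives were another pseudocount, other filters and scalings, no trend, array weights, sex or blocks as terms, and omission of each library. In fits without an FM library, the remaining one was taken to have the spread of the FMC libraries.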

Additional observations from a re-analysis of the deposited data

Results flagged for a closer look

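Rpl39l stood at 2.41 FPKM in FMC 2 and was listed at 0 in the other 3 FMC libraries, and was flagged by a rule on gaps among 4 samples. When 3 of 4 values are 0, any value above 0 in the remaining library meets such a rule. The usual rate of about 1 in 20 by chance does not apply to such values, and the flag is no sign of an unusual library.

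In 12 of the 81 members tested, both FMC libraries of one labelled sex lay above the FM library of that sex and both of the other sex below theirs, so that the genotype difference had opposite signs. The 5 of these that fall under the naming rule are given here. Each sex has 1 FM library, so such a pattern is not rare among libraries in random order. The share of all genes with this pattern was not computed, so the count is no result about the members. The difference between the sexes was not tested. The genotype difference in the libraries labelled female minus that in those labelled male was -0.77 (log2) for Rpl12, where both female FMC libraries lay below FM 2 and both male ones above FM 1. It was -0.55 for Rpl13a and -1.84 for Rps14, in the same direction. For Rpl22 it was 0.70 and for Rps4y2 1.13, with female FMC libraries above FM 2 and male ones below FM 1.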

How the results depend on the processing

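No member was called between genotypes under any of the alternatives run. The count of all genes called, 5 in the values reported, was 1 with a pseudocount of 0.1, 33 without a filter, 0 with a mean of at least 5 FPKM, 10 without the intensity trend, 0 with sex as a covariate and 3 with blocks by title dates. With each library left out it ranged from 0 to 8, the latter without FMC 4. Fewer genes or libraries enter the stricter filter and the omissions, and the cause of the other changes was not tested. The labelled sex comparison called 0 to 4 genes with each library left out, 4 without FMC 1. Its medians moved to 0.62 and 0.80 with quantile normalization and to 0.96 and 1.11 with equal sums for the large and small subunit. The large minus small balance, FMC minus FM, was -0.06 and ranged from -0.17 without FM 2 to 0.057 without FM 1.

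Differences of single genes turned with the libraries used. With blocks by title dates, Rpl36a was at -0.52, Rpl12 at -0.23, Rps3 at -0.32, Rps23 at -0.42 and Rps19 at -0.066, and with quantile normalization Rps23 was at -0.23. The cause was not tested. Without one library at a time, Rpl36a ranged from -0.52 to 1.07, Rpl12 from -0.62 to 1.21, Rps3 from -0.56 to 1.15, Rps23 from -0.66 to 1.34 and Rps19 from -0.42 to 1.67. Rpl7 ranged from -0.998 to 0.19, Rpl23a from -1.09 to 0.32 and Rps2 from -1.40 to 0.75. In each of these the low and the high end came from leaving out FM 1 and FM 2. By labelled sex Rpl39l ranged from -0.88 to 0.077.

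With the replicate number as a block (replicate block), 0 genes and 0 members were called, and the medians were -0.08 for the large and -0.01 for the small subunit. The deviations of same-numbered libraries correlated at 0.031 (number 1) and -0.057 (number 2), so the numbers were taken as names only.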
